A study of Mus musculus with 5 samples.

Results

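Apolipoprotein and chylomicron assembly genes were followed across the epithelial cell classes of the mouse ileum after small bowel resection and after sham surgery. The members were 7 genes, Apoa1, Apoa4, Apoc2, Apoc3, Apob, Mttp and Sar1b, found by symbol among 27933 symbols, where they took 8 of 27998 rows. The measurements were droplet single-cell RNA profiles of epithelium isolated from the distal small intestine of C57BL/6 mice aged 8 to 12 weeks. One group had a length of small bowel removed (2 libraries, resection 1 and resection 2), and the other had a control operation without resection (3 libraries, sham 1, sham 2 and sham 3). The labels name no genetic change in either group. The labels give neither the time after surgery nor the diet, and they do not say whether a library is 1 mouse or a pool, so p-values measure only the spread between these libraries.

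Enterocytes export dietary fat as chylomicrons, particles built in the endoplasmic reticulum around a single molecule of apolipoprotein B. The microsomal triglyceride transfer protein, encoded by Mttp, loads triglyceride onto apolipoprotein B. The small GTPase SAR1B drives formation of the COPII coat that carries the particle to the Golgi. Apoa1, Apoa4, Apoc2 and Apoc3 encode exchangeable apolipoproteins that sit on the particle surface. ApoC-II activates lipoprotein lipase, and ApoC-III slows the clearance of the particle.

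Apoa1, Apoc3 and Apoa4 are neighbours on chromosome 9 (GRCm38, GENCODE). Apoa1 lies at chr9:46228580-46230466 on the plus strand, Apoc3 at chr9:46232933-46235636 on the minus strand and Apoa4 at chr9:46240696-46243459 on the plus strand. The gaps between them are 2466 and 5059 bases, and the whole stretch spans 14880 bases. The others stand on chromosomes of their own, with Apoc2 at chr7:19671579-19677941 (minus), Apob at chr12:7977648-8016835 (plus), Mttp at chr3:138089854-138144968 (minus) and Sar1b at chr11:51763687-51791925 (plus).

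Promoter stretches are shown for 3 members, the most abundant one and the 2 that hold a match to CAAAGNNCA, the core letters of a site for HNF4-type nuclear receptors. Each is the RefSeq sequence (GRCm38.p6) upstream of the annotated gene start, printed 5′ to 3′ on the plus strand, on which all 3 genes lie, with the match in capitals.
Apoa1, chr9:46228380-46228579: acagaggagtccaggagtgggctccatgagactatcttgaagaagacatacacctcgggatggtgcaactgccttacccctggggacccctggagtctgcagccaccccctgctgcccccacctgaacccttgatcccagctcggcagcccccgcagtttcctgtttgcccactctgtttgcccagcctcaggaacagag
Apoa4, chr9:46240594-46240695: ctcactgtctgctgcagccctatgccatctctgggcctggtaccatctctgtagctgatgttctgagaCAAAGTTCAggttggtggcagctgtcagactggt
Apob, chr12:7977427-7977647: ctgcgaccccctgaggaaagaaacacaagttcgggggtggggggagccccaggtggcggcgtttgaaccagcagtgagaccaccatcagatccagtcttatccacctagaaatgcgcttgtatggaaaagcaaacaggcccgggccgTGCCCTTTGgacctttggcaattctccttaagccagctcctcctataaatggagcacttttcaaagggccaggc
The motif was searched on both strands in the 250 bases before the RefSeq start. It matched in 2 of the 6 members with an entry and in 1803 of all 32851 promoters, or 5.49%. In Apoa4 it lies 182 bases before the RefSeq start and reads CAAAGTTCA on the gene's strand. In Apob it lies 103 bases before the start on the opposite strand, so that the plus strand reads TGCCCTTTG. A match is a description of the letters, not a measured site.

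The libraries held 11749028 to 41281731 UMIs, unique molecule tags that each count 1 captured transcript, at medians of 4541 to 6239.5 UMIs per cell. After filters and removal of doublets, 18214 of 19404 cells were kept in 19 clusters. Of these, 17745 were epithelial and 469 T cell-like. Classes end in "-like" because clusters were named by marker genes. The enterocyte-like class took 9 clusters and 11339 cells, with 535, 2369 and 1604 cells in sham 1 to 3 and 2348 and 4483 in resection 1 and 2. All 10 enterocyte markers were detected in it, and Fabp6, the ileal bile acid binding protein, stood among the 10 leading genes of 1 of its clusters. The median mitochondrial share was 13.7%, 8.54% and 7.24% in the sham libraries and 11.7% and 9.19% in the resection libraries. Any pair of libraries shared 6 to 47 cell barcodes.

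Libraries fell into 2 sets by the clusters their cells occupied, which the labels do not explain. Outside the enterocyte-like class, sham 1 and resection 1 (set A) overlapped by 83.2%, counting for each other epithelial cluster the smaller of the 2 shares of cells. Sham 2, sham 3 and resection 2 (set B) overlapped by 80.5% to 90.4% among themselves, and the sets overlapped by 5.45% to 10.1%. Each set holds libraries of both operations, so results are given pooled and within each set. In the enterocyte-like class itself sham 1 and resection 1 overlapped by only 7.28%, so the cells compared in set A come from different clusters, chiefly cluster 10 in sham 1 and clusters 4 and 8 in resection 1. In set B resection 2 overlapped sham 2 by 42.5% and sham 3 by 29.1%. Of its 4483 enterocyte-like cells 2628 sat in cluster 0, which held 82 cells of sham 2 and 34 of sham 3. In this clustering that comparison too was largely between cells of different clusters. These overlaps depended on the clustering. With genes scaled within each library first, resection 2 overlapped sham 2 by 86.4% and sham 3 by 72.4% in enterocyte-like cells. Sham 1 and resection 1 then overlapped by 51.4%.

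Apoa1, encoding the main protein of high-density lipoprotein, was the most abundant member in enterocyte-like cells on the scale of CPM, UMIs scaled to a common total per library. UMIs of these 3′ libraries count transcript ends, so values were not divided by gene length. Apoa1 reached 11416, 17291 and 15445 CPM in sham 1 to 3 and 26622 and 27448 CPM in resection 1 and 2. The 2 resection values exceeded all 3 sham values. The means were 14720 ± 3000 CPM (SD, n = 3) and 27040 ± 584 CPM (SD, n = 2), 1.84-fold apart.

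Apoa4, whose protein is made mainly by enterocytes during fat absorption, showed 780, 709 and 211 CPM in the sham libraries. In the resection libraries it showed 8475 and 3866 CPM. The lower resection library stood well over the highest sham library, and sham 3 was the lowest of the 5. The means were 566.6 ± 310.0 CPM (SD, n = 3) and 6171 ± 3260 CPM (SD, n = 2), 10.9-fold apart. The spread within each group was itself large, with resection 1 above resection 2 and sham 1 and 2 above sham 3. An antisense gene, Gm10680, covers 632 of the 1181 bases of the last exon of Apoa4. Whether counting used strand is not stated in the sources used here, but that gene's own row held 195 UMIs over all cells.

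Apoc3 gave 275, 388 and 207 CPM in sham 1 to 3 and 1949 and 1587 CPM in resection 1 and 2. Its groups did not overlap, and the 2 resection libraries were closer to each other than for Apoa4. The means were 289.8 ± 91.3 CPM (SD, n = 3) and 1768 ± 256 CPM (SD, n = 2), 6.1-fold apart.

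Apoc2 was the scarcest member. It had 4, 17 and 7 UMIs in the enterocyte-like cells of sham 1 to 3 and 298 and 161 UMIs in those of resection 1 and 2. As levels these were 1.30, 1.54 and 0.589 CPM against 22.8 and 7.23 CPM. The group means of 1.14 and 15.02 CPM were 13.1-fold apart and rest on few molecules in the sham libraries. Without resection 1 the edgeR log2 difference of Apoc2 was 2.73, against 3.62 with it. A second row carries the symbol Apoc2 and covers 265 of the 270 bases of the last exon on the same strand. It held 0 UMIs, and how reads of the shared bases were assigned is not stated in the sources used here.

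Apob, the structural protein of the particle, gave 688, 471 and 393 CPM in sham 1 to 3 and 1331 and 869 CPM in resection 1 and 2. Both resection libraries lay above all sham libraries, at means of 517.4 ± 153.0 CPM (SD, n = 3) and 1100 ± 327.0 CPM (SD, n = 2), 2.13-fold apart. Mttp gave 798, 635 and 523 CPM in the sham libraries and 1149 and 708 CPM in the resection libraries. Here the groups overlapped, since sham 1 exceeded resection 2, and the means of 651.9 ± 138.0 and 928.7 ± 312.0 CPM (SD, n = 3 and n = 2) were 1.42-fold apart. Sar1b gave 122, 180 and 196 CPM in the sham libraries and 199 and 198 CPM in the resection libraries. The highest sham value lay just under the lower resection value, with means of 166.1 ± 38.6 and 198.3 ± 0.566 CPM (SD, n = 3 and n = 2).

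**Figure D1:**
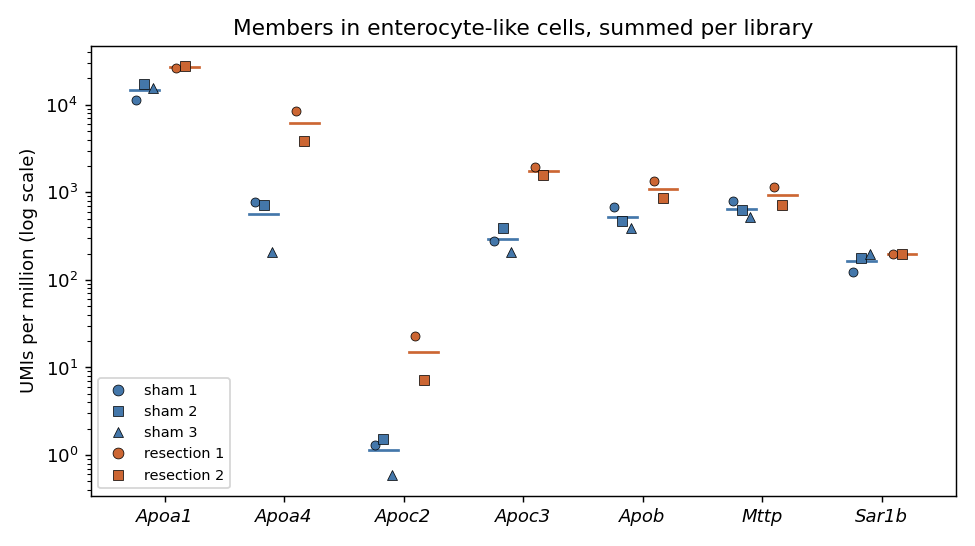
Level of each member in enterocyte-like cells, as CPM on a log axis, with 1 point per library (blue sham, orange resection) and a line at the mean of each group. The group means differ 13.1-fold for Apoc2, 10.9-fold for Apoa4 and 6.1-fold for Apoc3, and the groups overlap for Mttp.

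Over the 10404 genes tested in the enterocyte-like sums, edgeR's quasi-likelihood test called 0 genes at an adjusted p of 0.05 (0.0%), and so 0 of the 7 members. At an unadjusted p of 0.05 it held 491 genes, 4 of them members, and DESeq2 called 59 genes (0.567%). The edgeR log2 difference, resection minus sham, was 3.41 ± 0.59 (SE) for Apoa4 with an adjusted p of 0.330. It was 2.55 ± 0.39 for Apoc3 (adjusted p = 0.274), 3.62 ± 0.56 for Apoc2 (adjusted p = 0.276) and 1.07 ± 0.32 for Apob (adjusted p = 0.807). Apoa1 (0.82 ± 0.42), Mttp (0.47 ± 0.32) and Sar1b (0.19 ± 0.36) had edgeR adjusted p-values of 0.997. All 7 differences were positive, at a median of 1.07 against -0.0195 over all genes tested. In 6 of the 7 the groups were apart with resection higher, as in 8.54% of all genes tested, and in 0 of the 7 with resection lower, as in 6.76%.

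The calls for 3 members turned on the method. Apoa4, Apoc2 and Apoc3 were called by DESeq2, at adjusted p-values of 5.28e-07, 1.21e-05 and 4.42e-08. With the set of libraries as a term in edgeR, 22 genes were called (0.211%), among them Apoa4 (adjusted p = 0.0493), Apoc2 (adjusted p = 0.0400) and Apoc3 (adjusted p = 0.0318). The set was read from the clusters of these same cells and not from a label. Calls with it, here and below, are therefore descriptive and not those of a planned test. With no filter on low counts (1.15% of genes called) and with the replicate number as a block (1.31%) edgeR called the same 3. Apob, Apoa1, Mttp and Sar1b were called by none of these. The replicate numbers were not taken as pairs. Sham 3 is the only library with its number, so with the block it adds nothing to the group difference. Calls with the block, here and below, only show how the result depends on the model.

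Within each set the direction was the same for every member in enterocyte-like cells. The log2 difference for Apoa4 was 3.53 in set A and 3.28 in set B, and for Apoc3 2.91 and 2.45. For Apoc2 it was 3.37 and 2.05. For Apob it was 1.04 and 0.97. Apoa1 differed by 1.31 in set A and 0.71 in set B, Mttp by 0.61 and 0.26, and Sar1b by 0.78 and 0.04. The between-set gap was thus smallest, on this scale, for Apob and widest for Apoc2. All these within-set values are log2 ratios of scaled CPM + 1, not edgeR estimates. The added 1 shrinks them for a gene as scarce as Apoc2, so its order against Apoa4 is not compared with the pooled order. Set A holds 1 library per group, so its values have no replicate check.

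Marker lists were summed in the same cells, and of those given here the enterocyte and immature enterocyte lists separated the groups. The summed level of the 10 enterocyte markers was 7620 to 10690 CPM in the sham libraries and 10860 to 16240 CPM in the resection libraries. The 7 immature enterocyte markers summed to 2710 to 4230 CPM and to 1512 to 1968 CPM. Of the T cell list 9 of 10 markers had a UMI, at 57.1 to 126.5 CPM against 30.9 to 100.7 CPM, and all 8 Paneth markers, at 1345 to 6079 CPM against 2320 to 2438 CPM, both with overlapping groups. Ms4a1, a B cell marker, and the stromal and endothelial markers Dcn and Cdh5 were at 0 in every library. The part of these markers in the member differences was not tested.

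Together the 7 members took 1.41%, 1.97% and 1.70% of all UMIs of enterocyte-like cells in sham 1 to 3 and 3.98% and 3.47% in resection 1 and 2. The groups did not overlap, and the means of 1.69% and 3.72% were 2.2-fold apart. The make-up of that pool differed too. Apoa1 supplied 81.1%, 87.9% and 91.0% of the member UMIs in the sham libraries and 67.0% and 79.1% in the resection libraries. Apoa4 supplied 5.54%, 3.60% and 1.24% against 21.3% and 11.2%, and Apoc3 supplied 1.95%, 1.97% and 1.22% against 4.90% and 4.58%. The part of Mttp ran the other way, from 5.67%, 3.23% and 3.08% to 2.89% and 2.04%, although its own CPM was not lower.

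Shares of cells with a UMI were compared after thinning each cell to 2000 UMIs, which no kept cell fell short of. Apoa1 was seen in 99.1% to 99.7% of enterocyte-like cells in the sham libraries and in 99.94% to 99.98% in the resection libraries. Apoa4 was seen in 44.8%, 33.4% and 14.9% of cells in sham 1 to 3 and in 91.6% and 72.9% in resection 1 and 2. Without thinning these shares were 72.2%, 50.2% and 29.99% against 98.9% and 87.9%. Apoc3 was seen in 34.97%, 44.1% and 31.2% against 81.7% and 73.7% of thinned cells. For both genes the groups were separate and the resection means were 51.2 and 40.9 percentage points higher.

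Apob was seen in 70.6%, 57.4% and 52.5% of thinned sham cells and in 88.6% and 76.7% of thinned resection cells. Mttp overlapped, at 79.3%, 70.6% and 63.5% against 87.1% and 73.9%, and Sar1b was seen in 21.8% to 31.9% against 32.2% to 33.1%. Apoc2 was seen in 0.116% to 0.384% of sham cells and in 4.37% and 1.61% of resection cells. Exact two-sided permutation tests over the 5 libraries gave p = 0.1 for Apoa4, Apoc2 and Apoc3, the smallest that 3 against 2 libraries allow, and p = 0.233 after adjustment over the 7 members. The same exact tests gave p = 0.2 for Apob and Sar1b (adjusted 0.28), p = 0.3 for Apoa1 (adjusted 0.35) and p = 0.4 for Mttp (adjusted 0.4), so none could reach 0.05.

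**Figure D2:**
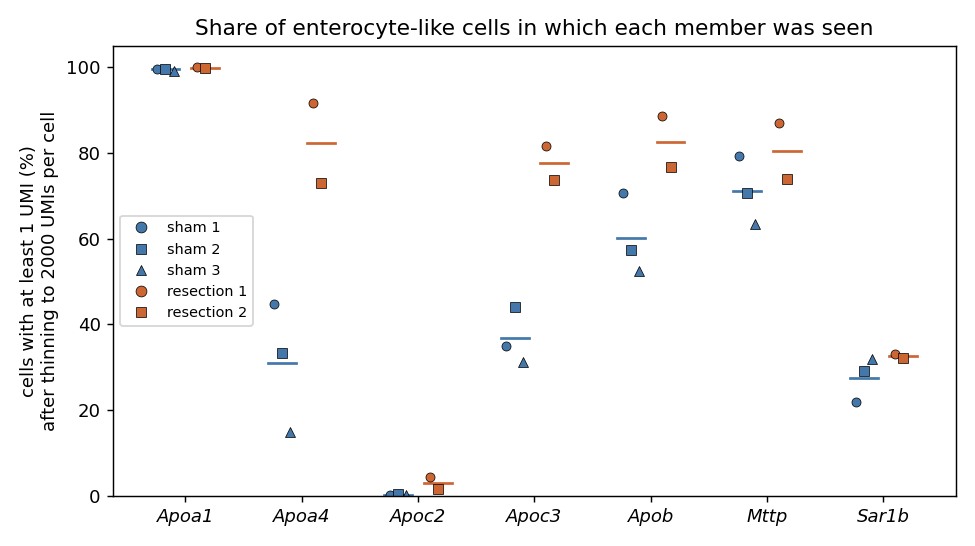
Share of enterocyte-like cells with at least 1 UMI of each member after thinning to 2000 UMIs per cell, with 1 point per library (blue sham, orange resection) and a line at each group's mean. Apoa1 is near 100% in all 5 libraries, Apoa4 and Apoc3 separate the groups, and Sar1b stays between 21.8% and 33.1%.

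Such shares can also count free RNA in droplets of cells that do not express a gene. In T cell-like cells, which should lack Apoa4, it was seen in 35.5%, 37.8% and 19.9% of thinned cells in sham 1 to 3 and in 93.6% and 71.9% in resection 1 and 2. That was above the enterocyte-like share in sham 2, sham 3 and resection 1, so the share of cells with Apoa4 is not read as a share of expressing cells. In Paneth-like cells Apoa4 was seen in 29.1%, 22.7% and 9.50% against 71.7% and 67.2%, below the enterocyte-like share in all 5 libraries. Mttp was seen in fewer T cell-like cells (47.8% to 59.7% in sham, 73.3% and 57.1% in resection) and in 5.93% to 19.1% of Paneth-like cells, below the enterocyte-like share throughout. Median depths were 4101 to 5877 UMIs in enterocyte-like, 4204 to 6702.5 in T cell-like and 5833 to 19714 in Paneth-like cells. The T cell-like cells held enterocyte markers at 6942 CPM, against 11320 CPM in enterocyte-like and 927.9 CPM in Paneth-like cells, and T cell markers at 11540 CPM. They also held Paneth markers at 29370 CPM and goblet markers at 6607 CPM, against 2960 and 825.7 CPM in enterocyte-like cells. Whether these UMIs come from free RNA or from droplets holding several cells was not tested.

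Levels in single cells showed how unevenly Apoa4 was spread. Its median per 10000 UMIs was 2.30, 0.713 and 0.0 in sham 1 to 3 and 35.6 and 8.63 in resection 1 and 2, while the 90th percentile was 18.5, 14.7 and 3.13 against 250.9 and 131.6. The 10% of cells with the highest Apoa4 level held 68.8%, 82.5% and 89.7% of the summed per-cell level in the sham libraries and 41.4% and 56.2% in the resection libraries. Cells with at least 100 Apoa4 UMIs per 10000 made up 1.31%, 2.41% and 0.499% of sham cells and 30.5% and 13.5% of resection cells. Among cells with at least 1 Apoa4 UMI the mean was 11.6, 17.9 and 10.3 per 10000 in sham and 90.6 and 50.3 in resection. Both the share of cells and the level in those cells were thus higher in the resection libraries.

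Mttp was spread far more evenly. Its top 10% of cells held 20.9% to 23.9% of the summed level over all 5 libraries. For Apoa1 that share was 19.0% to 27.5%, and for Apoc3 it was 46.2%, 49.5% and 47.4% in sham against 32.7% and 39.9% in resection.

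Counting how many members a thinned cell showed, the median was 3 in each sham library and 5 in each resection library. At least 4 of the 7 were seen in 48.0%, 43.6% and 28.7% of sham cells and in 90.8% and 75.6% of resection cells. Apoa1, Apoa4, Apoc3 and Apob were all seen together in 16.1%, 15.2% and 5.17% of sham cells and in 70.1% and 50.5% of resection cells. The groups did not overlap in any of these.

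Co-expression was measured as Spearman's rho over the thinned enterocyte-like cells of 1 library at a time. It is given as a description, since cells of a library share its free RNA and its mix of villus positions. The 3 neighbours on chromosome 9 gave the highest values, with a mean over the 5 libraries of 0.501 for Apoa1 and Apoc3, 0.487 for Apoa1 and Apoa4 and 0.432 for Apoa4 and Apoc3. Apob, on another chromosome, followed with 0.378 to Apoa1, 0.300 to Apoa4 and 0.267 to Apoc3. Mttp reached 0.103 to 0.136 with these 4 genes, and every pair with Sar1b stayed at 0.0725 or below. Of the 21 pairs, 15 were positive in every library that gave a value. Pairs with Apoc2 gave none in sham 1, where no thinned cell held it. Of all pairs, 10 had a mean under 0.1, at which a correlation in sparse counts is no finding.

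For Apoa4 and Apoc3 the value per library was 0.290, 0.344 and 0.185 in sham and 0.642 and 0.701 in resection. Both were seen in 19.1%, 20.4% and 7.23% of sham cells, where independent detection would give 14.8%, 14.9% and 4.74%. In resection cells they were seen together in 76.7% and 59.7%, against 74.6% and 53.9% if independent.

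**Figure D3:**
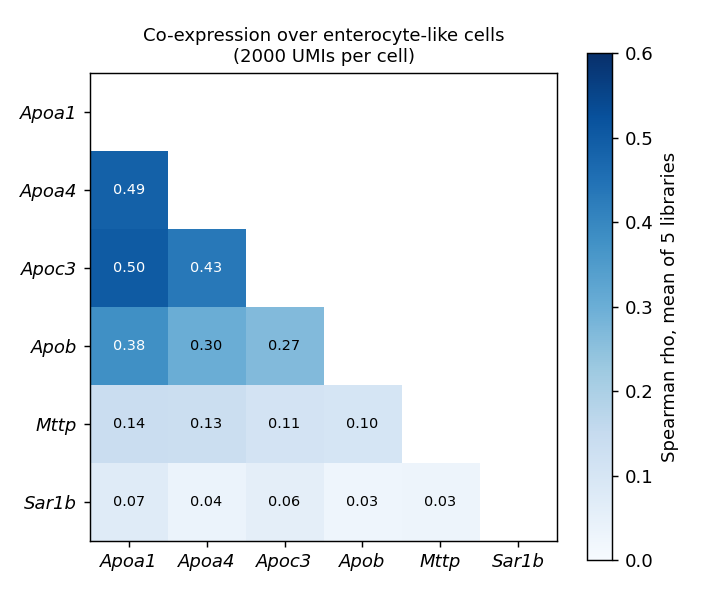
Spearman's rho between members over enterocyte-like cells thinned to 2000 UMIs, as the mean of 5 libraries, for the 6 members other than Apoc2. The block of Apoa1, Apoa4, Apoc3 and Apob holds 0.27 to 0.50, and the rows of Mttp and Sar1b are pale.

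The non-member genes most like the summed members across enterocyte-like cells were found among 1922 genes seen in at least 20% of those cells in every library. They were Fabp2 (mean rho over 5 libraries 0.841), the intestinal fatty acid binding protein, Sepp1 (0.811), which encodes selenoprotein P, Rbp2 (0.777), a cellular retinol binding protein, Crip1 (0.677) and B2m (0.655), the light chain of MHC class I. The median over the 1922 genes was -0.0316 and the 95th percentile 0.241. The sum is mostly Apoa1, so this is chiefly likeness to Apoa1. Genes at the other end included Krt19 (-0.688), a marker of immature enterocytes, and Lypd8 (-0.599), a lower villus landmark, both chosen after the values were seen.

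Position along the villus was scored for each enterocyte-like cell from 16 landmark genes, and the cells of each library were split into 5 equal bins from bin 1 (lower villus) to bin 5 (tip). Landmarks such as Ada and Klf4 mark the tip, and Reg3b and Lypd8 the lower villus. Bins are ranks within a library, so the same bin is not matched for position between libraries. In bin 5 Ada stood at 178.9, 65.0 and 33.0 CPM in sham 1 to 3 and at 311.8 and 605.6 CPM in resection 1 and 2. Lypd8 stood there at 877.0, 840.2 and 1048 against 117.1 and 217.3 CPM. Reg3b was also lower in both resection libraries, and Klf4 overlapped. Apoa4 had the steepest gradient of the members, with a log2 ratio of bin 5 to bin 1 of 3.60, 4.86 and 4.14 in sham 1 to 3 and 3.30 and 4.90 in resection 1 and 2. The sham and resection ranges overlapped for this ratio (difference -0.10, exact permutation p = 1.0). The level itself was higher in every bin, with mean CPM from 131.6 (bin 1) to 2377 (bin 5) in sham and from 1132 to 15480 in resection. As a ratio of group means the gap was 8.6-fold in bin 1, 15-fold in bin 2, 28.7-fold in bin 3, 25.5-fold in bin 4 and 6.51-fold in bin 5. The ratio was widest in bin 3 within set A (27.5-fold) and in bin 4 within set B (22.3-fold), and smaller at both ends in each.

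Apoc3 had a log2 tip to base ratio of 1.89, 2.76 and 2.03 in sham and 3.10 and 3.61 in resection. Those ranges did not overlap, and the difference of 1.13 had an exact permutation p = 0.2 (adjusted 0.467 over 7 members). Its resection to sham ratio was 2.83 in bin 1, 4.39 in bin 2, 7.03 in bin 3, 9.56 in bin 4 and 5.76 in bin 5. For Apoc3, Apoa4 and Apoa1 the groups were apart in all 5 bins, with resection higher. The share of all genes with groups apart in a bin was not computed, so bin counts here and below have no background.

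Apoa1 was 1.56-fold to 2.13-fold higher over the bins, and its tip to base ratio did not separate the groups (1.56, 1.92 and 2.25 against 1.41 and 2.20, exact permutation p = 0.7). Apob was 1.69-fold to 2.44-fold higher, with the groups apart in 4 of 5 bins. Mttp was nearly level along the axis, at log2 ratios of 0.06, 0.59 and 0.40 in sham and 0.25 and 0.76 in resection, and its groups were apart in bins 4 and 5 only. Sar1b was apart in bins 3 and 4, at ratios of 0.968 to 1.36 over the bins. Its tip to base log2 ratio of 0.04, 0.12 and 0.53 in sham lay below the 0.64 and 0.85 of resection (exact permutation p = 0.2, adjusted 0.467), and so did that of Apoc2, by 2.32 (p = 0.2 in the same exact test), on few UMIs. With 3 bins the groups stayed apart for both genes. With tip landmarks alone they overlapped for both. Sar1b then gave 0.22, 0.44 and 0.56 in sham and 0.30 and 0.81 in resection, and Apoc2 1.43, 2.25 and -0.04 against 1.47 and 2.43.

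**Figure D4:**
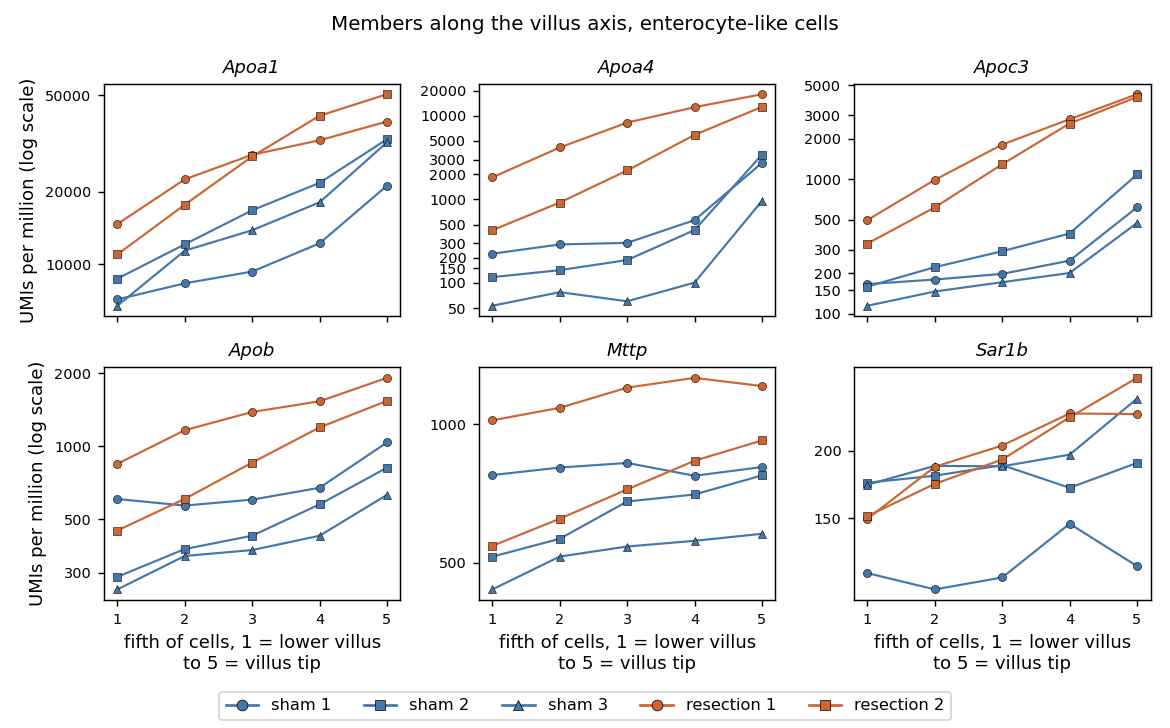
Level of 6 members as CPM on a log axis against position along the villus, from bin 1 (lower villus) to bin 5 (tip), with 1 line per library. Positions are ranked within each library and are not matched between libraries. The resection lines of Apoa4 and Apoc3 lie above all sham lines in every bin, and those of Mttp and Sar1b cross or meet them.

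Within clusters that hold cells of both groups the pattern varied, and most such comparisons have 1 resection library. In cluster 2, Apoa4 stood at 137 and 80.2 CPM in sham 2 and 3 and at 741 CPM in resection 2, and in cluster 3 at 150 and 84.4 CPM against 376 CPM. In cluster 0, which held 82 cells of sham 2 and 2628 of resection 2, it stood at 5238 and 5635 CPM, nearly the same. In cluster 6 it stood at 154 CPM in sham 3 and at 1010 CPM in 69 cells of resection 2. Cluster 10, the one that held 52 or more cells of each of 4 libraries, gave 597 and 1317 CPM in sham 1 and 2 and 3116 and 5267 CPM in resection 1 and 2. The highest level was 32741 CPM in 96 cells of resection 2 in cluster 17, whose leading genes include the tip landmarks Ada, Nt5e, Slc28a2 and Enpp3. The Apoa4 gap between groups thus ran from near 0 to several-fold by cluster. Some other members went the other way. In cluster 0 the sham 2 cells exceeded those of resection 2 for Apoa1 (42572 against 39304 CPM), Mttp (945.9 against 825.6 CPM) and Apoc2 (18.5 against 11.4 CPM), while Apoc3 was lower in them (1651 against 2445 CPM). Apoc2 was seen in only 6.1% of those 82 sham 2 cells, so its difference there rests on few molecules. In cluster 2 Sar1b stood at 172.3 and 184.2 CPM in sham 2 and 3 and at 146.5 CPM in resection 2. The 7 genes were left out of the genes used to cluster.

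In immature enterocyte-like cells, which numbered 399, 623 and 483 in sham 1 to 3 and 742 and 898 in resection 1 and 2, edgeR called 0 of 9710 genes (0.0%) and 0 of the 6 members tested. At an unadjusted p of 0.05 it held 113 genes, and DESeq2 called 0. Apoa4 stood at 218, 91.2 and 39.1 CPM in sham and at 972 and 400 CPM in resection, a log2 difference of 2.52 ± 0.61 (edgeR adjusted p = 0.99996). Apoc3 stood at 103, 68.0 and 36.7 CPM against 215 and 179 CPM, or 1.48 ± 0.37. These 2 of 6 members had both resection libraries above all sham libraries, against 5.57% of the genes tested, and 0 had them below, against 2.79%. With the replicate number as a block edgeR called both (1.64% of genes called), and with the set as a term neither (0.0103%). Apoc2, with 0 to 1 UMIs in each sham library and 15 and 9 in the resection libraries, was too low to be tested.

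The other 4 members did not separate the groups in these cells. Apoa1 gave 3490, 2041 and 1160 CPM in sham and 2919 and 2969 CPM in resection (log2 0.39 ± 0.45). Apob gave 325, 131 and 120 CPM against 271 and 185 CPM (log2 0.23 ± 0.40). Mttp gave 449, 239 and 231 CPM against 425 and 235 CPM (log2 0.05 ± 0.34), and Sar1b 74.7, 131 and 140 CPM against 88.5 and 113 CPM (log2 -0.28 ± 0.41). Within set A, Apoa1 and Apob were lower in resection 1 than in sham 1 (log2 -0.27 and -0.28), and within set B they were higher (0.93 and 0.55). Mttp made up 9.63%, 8.85% and 13.4% of the member UMIs in the immature cells of sham 1 to 3 and 8.68% and 5.76% in those of resection 1 and 2, a larger part than in enterocyte-like cells in all 5 libraries.

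Whether the group difference itself differed between mature and immature cells was tested as an interaction in edgeR, with the library as a block. Of 10407 genes 0 were called (0.0%), and 1070 had an unadjusted p under 0.05. The difference of log2 differences was 1.10 ± 0.28 for Apoc3 (adjusted p = 0.209), 0.88 ± 0.27 for Apoa4 (adjusted p = 0.256) and 0.80 ± 0.23 for Apob (adjusted p = 0.239). It was 0.53 ± 0.18 for Sar1b, 0.46 ± 0.19 for Mttp, 0.43 ± 0.43 for Apoa1 and 0.46 ± 1.43 for Apoc2, with adjusted p-values of 0.318 to 0.942. All 7 were positive, at a median of 0.53 against 0.05 over all genes tested. With no filter on low counts 1.26% of genes were called, among them Apoa4, Apob and Apoc3.

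Over all epithelial cells summed, edgeR called 0 of 11748 genes (0.0%), with 317 at an unadjusted p of 0.05, and DESeq2 called 35 (0.298%), among them Apoa4, Apoc2 and Apoc3. With no filter on low counts edgeR called the same 3 members (0.103% of genes). It called 0 members with the set as a term (0.0255%), and with the replicate number as a block Apob as well (1.88%). In 6 of the 7 members, Sar1b being the exception, the groups were apart with resection higher, as in 18.1% of all genes tested, and in 0 members with resection lower, as in 1.92%. These sums mix classes whose parts differ between libraries. Enterocyte-like cells held 3071682 of 10663084 UMIs in sham 1, 11039489 of 20534467 in sham 2 and 11891825 of 21458965 in sham 3. In resection 1 and 2 they held 13068559 of 25631124 and 22276214 of 35214624. Mttp, whose groups overlapped in enterocyte-like cells, was among the 6. The part of class make-up in these differences was not tested.

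Levels in the other classes are given as a description. Apoa4 gave 426, 997 and 165 CPM in goblet-like cells of sham 1 to 3 and 7939 and 3157 CPM in those of resection 1 and 2. In T cell-like cells it gave 273, 400 and 413 CPM against 9140 and 3222 CPM. Cycling-like cells held 161, 84.9 and 14.0 CPM against 1046 and 503 CPM, and Paneth-like cells 175, 121 and 40.4 CPM against 662 and 938 CPM. Stem-like cells, of which sham 1 had 0, held 56.3 and 24.4 CPM in sham 2 and 3 and 899 and 394 CPM in resection 1 and 2. In each of these classes the resection values thus exceeded all sham values, T cell-like cells included, and the part of free RNA in these differences was not tested. The tuft-like class had 23 cells in all and is not compared.

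Apoa1 had its highest mean in enterocyte-like cells, with sham means of 14720 CPM there, 9224 in T cell-like, 8031 in goblet-like, 2230 in immature enterocyte-like, 1688 in Paneth-like, 1400 in cycling-like and 1382 CPM in stem-like cells. The sham ranges of enterocyte-like and T cell-like cells overlapped, as did those of T cell-like and goblet-like cells and those of the last 4 classes. Mttp had sham means of 651.9, 373.6, 319.9, 306.1, 52.7, 121.5 and 60.6 CPM in the same order of classes, and its enterocyte-like range overlapped no other of these. Sar1b had sham means of 166.1, 89.6, 79.2, 115.4, 14.2, 81.6 and 92.6 CPM, with Paneth-like cells lowest.

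**Figure D5:**
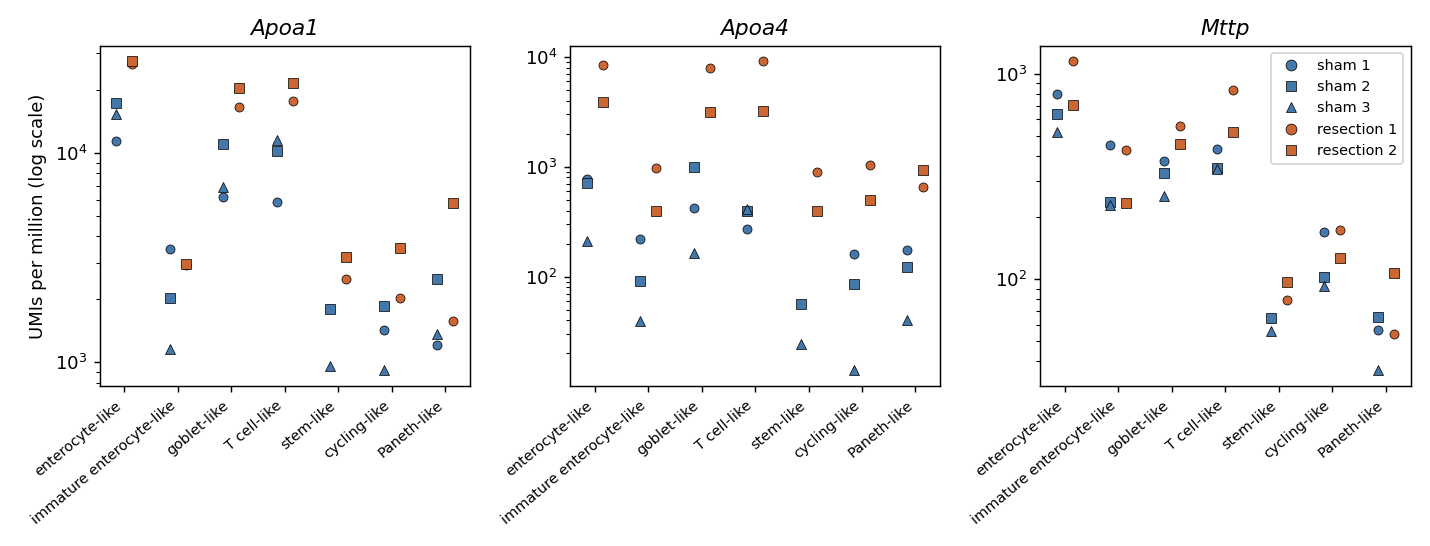
Level of Apoa1, Apoa4 and Mttp in 7 cell classes, as CPM on a log axis, with 1 point per library (blue sham, orange resection). Apoa4 is higher in both resection libraries in every class plotted, including T cell-like cells, and Mttp is lowest in stem-like and Paneth-like cells.

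Other genes of fat absorption were taken from 5 lists, none of which had a member called in either direction by edgeR in enterocyte-like cells (background 0.0%). Of the uptake list 7 of 8 genes were tested, and in 5 the groups were apart with resection higher, against 8.54% of all genes. Its median log2 difference was 0.82 against -0.0195 over all genes. Fabp1, a cytosolic fatty acid binding protein, stood at 208.3, 506.4 and 610.9 CPM in sham and at 5763 and 2739 CPM in resection (log2 3.14 ± 0.59, edgeR adjusted p = 0.375). Cd36, a fatty acid translocase, was scarce at 5.86, 5.25 and 1.93 CPM against 32.4 and 8.35 CPM (log2 2.19 ± 0.59, edgeR adjusted p = 0.733). Npc1l1, the cholesterol uptake transporter, stood at 298.2, 250.7 and 148.9 CPM against 492.2 and 346.1 CPM.

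Of the triglyceride and lipid droplet list 11 of 12 genes were tested, at a median log2 difference of 0.13. Of these, 2 lay above and 1 below the sham range, against 8.54% and 6.76% of all genes tested. Cidec, a lipid droplet protein, gave 27.7, 21.6 and 16.7 CPM in sham and 62.0 and 30.2 CPM in resection (log2 1.03 ± 0.31, edgeR adjusted p = 0.807). Agpat2, an acyltransferase of triglyceride synthesis, was the one below, at 600.3, 496.7 and 543.0 CPM against 397.4 and 435.5 CPM. Dgat2, which completes triglyceride synthesis, overlapped at 107.6 to 142.3 CPM against 130.6 to 181.5 CPM.

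Of the assembly and export list 20 of 21 genes were tested, at a median log2 difference of 0.18. Of these, 5 lay above the sham range and 0 below, against 8.54% and 6.76% of all genes tested. Sec24d, a COPII cargo subunit, gave 49.8, 44.9 and 41.0 CPM in sham and 120.3 and 55.0 CPM in resection. A1cf, a cofactor of Apob mRNA editing, gave 22.1 to 23.0 CPM against 36.3 and 31.5 CPM, and Sec31a, of the outer COPII coat, 84.4 to 98.3 CPM against 157.8 and 106.2 CPM. The edgeR adjusted p-values of these 3 were 0.977 to 0.997.

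Of the other apolipoproteins only 5 of 10 were high enough to test, at a median of 0.54. Of these, 2 lay above the sham range, against 8.54% of all genes tested. Apoc4, which neighbours Apoc2 in the genome, gave 1.30, 1.18 and 0.336 CPM in sham and 2.53 and 1.93 CPM in resection, and Clu and Apoh stayed under 2 CPM in every library. Of 15 regulators all were tested, at a median of 0.00195. Of these, 3 lay above and 1 below the sham range, against 8.54% and 6.76% of all genes tested. Creb3l3, a membrane-bound transcription factor of lipid metabolism, gave 205.8, 175.1 and 139.1 CPM in sham and 440.7 and 266.0 CPM in resection (log2 0.98 ± 0.30, edgeR adjusted p = 0.807). Ppargc1a, a transcriptional coactivator, gave 22.1 to 38.1 CPM against 91.4 and 46.5 CPM. Nr1i3, the constitutive androstane receptor, overlapped at 10.3 to 25.7 CPM against 58.7 and 20.6 CPM.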

How the data were processed

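Libraries were made with the 10x Chromium 3′ kit (chemistry version 2), and the authors' deposited matrices hold unnormalized UMI counts made with Cell Ranger, per the labels, which give its version only with a question mark. The builds mm10 and GRCm38 are named per the submitters' processing notes. Annotation, strand setting and cell cutoff are not given in the sources used here. The lowest total per cell was 2354 to 3963 UMIs, and differed between libraries.

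Filters required 500 or more genes and no more than 20% mitochondrial UMIs, and 741 simulated-neighbour doublets (3.91%) were removed. Cells of all libraries were clustered together (2000 variable genes without members, pathway or mitochondrial genes, 30 components, 20 neighbours, leidenalg 0.10.2, resolution 1.0) and named by the mean scaled position of fixed markers on log2(CPM + 10). Rebuilt names can differ from the study's. Counts summed per library and class were tested with edgeR 4.0.16 in R 4.3.3 (quasi-likelihood, TMM, filterByExpr, Benjamini-Hochberg over all genes tested). The other tool was DESeq2 1.42.0. CPM values printed use the plain UMI total. Single values were compared by exact two-sided permutation tests over the 5 libraries. Detection after thinning is the expected share, while counts of members per cell and correlations between members use 1 random draw of 2000 UMIs. Likeness of other genes to the summed members uses values per 10000 UMIs without thinning. The tip to base ratio and the within-set log2 differences use CPM + 1, the latter with TMM scaling. Library totals of 11749028 UMIs and more set the counting precision, and all SDs are between libraries. The scripts were checked on simulated data. The members and lists were chosen with earlier results of these data known. Named genes are the 7 members, the 3 lowest-p genes per list and the 5 genes most like the members. Krt19, Lypd8 as a gene unlike the members, and Fabp6 were named outside this rule, after their values were seen. Alternatives cover scaling, tool, filters, clustering, thinning, bins, sets and left-out libraries.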

Additional observations from a re-analysis of the deposited data

How the results depend on the processing

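Over 815 recomputed values, 746 were labelled the same, 40 passed the threshold only under the alternative, 26 reversed and 3 moved. The total includes values that could not change side of the threshold. The exact permutation tests of detection and of tip to base ratios allow no p under 0.1, and within-set differences have no p. For such values the label does not test the side of the threshold, so 746 is not a count of calls that held. In enterocyte-like cells the number of members called was 0 and became 3 (Apoa4, Apoc2, Apoc3) with DESeq2, with no filter on low counts (182 genes called in all), with the set as a term and with the replicate block. In all epithelial cells 0 became 3 with DESeq2 and with no filter (18 genes called) and 4 with the block, and in the interaction 0 became 3 with no filter (210 genes called). The replicate numbers are shared by only 2 pairs of libraries and were not taken as pairs. Deviations from the group means correlated at 0.542 (number 1) and 0.217 (number 2) in enterocyte-like cells, and sham 3 and resection 2 gave 0.493. With 2 resection libraries the deviations of the group are exact opposites. These correlations are thus tied to each other and cannot decide whether the numbers are pairs. The replicate block raised the genes called from 0 to 136 in enterocyte-like, to 159 in immature enterocyte-like (2 members, Apoa4 and Apoc3) and to 221 in all epithelial cells. Leaving out each library in turn called 0 members in every comparison, and 0 to 3 genes in enterocyte-like cells and 0 to 15 in the interaction.

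The tip to base difference reversed for Apoa1 with 3 bins (0.0221) and for Apob with tip landmarks alone (-0.00282). With a library left out it ran from -0.50 to 0.29 for Apoa1, from -0.90 to 0.70 for Apoa4, from -0.00906 to 0.59 for Apob and from -0.10 to 0.41 for Mttp. The log2 difference of Sar1b then ran from -0.0593 to 0.37 in enterocyte-like, from -0.64 to 0.0135 in immature enterocyte-like and from -0.12 to 0.36 in all epithelial cells, and that of Mttp from -0.25 to 0.30 in immature cells. The interaction ran from -0.17 to 0.84 for Apoa1 and from -0.25 to 0.81 for Apoc2. In immature cells Mttp became -0.0830 with the replicate block, -0.0478 with the set as a term, -0.0933 within set A and -0.0122 within set B. Within set A alone Apoa1 (-0.27), Apob (-0.28) and Sar1b (0.23) also reversed there, as did Apoh in enterocyte-like cells (-0.0564). The cause was not tested. Apoc2 rests on few molecules, with 4 to 17 UMIs per sham library, and why its count was low was not tested.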
